A study of Homo sapiens with 6 samples.

Results

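The genes described here encode the transcription factor NRF2 (gene NFE2L2), the proteins that mark it for degradation and the proteins that share or contest its binding sites on DNA. They are 10 genes chosen by function and by symbol: NFE2L2, KEAP1, CUL3, RBX1, BTRC, MAFG, MAFF, MAFK, BACH1 and NFE2L1. All 10 were found in the deposited table of counts, among 60709 genes with values. Messenger RNA had been sequenced from SH-SY5Y, a neuroblastoma cell line of human origin, to study a fumarate joined to a peptide of NRF2. The 3 control samples are wells of cells at 80% confluence in 2 mL of medium that received 10 uL of DMSO and were lysed after 5 h. The 3 treated samples received the same DMSO and 200 uL of a solution of 2 mg of the peptide-linked fumarate in 600 uL of water; they are not analysed here, because no column of the table carries their numbers. Columns 4, 5 and 6 carry the numbers that the labels give to the controls and are called control replicates 1, 2 and 3. That match by number is the only ground for the name, so no difference between treatments is given, and values of treated cells under these headings cannot be told apart from values of controls.

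NRF2 is made continuously and, in unstressed cells, is held at a low level by destruction of the protein. KEAP1 is the substrate adaptor of a ubiquitin ligase built on the scaffold CUL3 and the RING subunit RBX1, and electrophiles such as fumarates react with cysteines of KEAP1, after which NRF2 escapes and enters the nucleus. BTRC, the F-box protein beta-TrCP, recruits NRF2 phosphorylated by the kinases GSK3A and GSK3B to a different ligase, built on CUL1, SKP1 and RBX1. In the nucleus NRF2 pairs with a small MAF protein (MAFF, MAFG or MAFK) on antioxidant response elements, and BACH1, which also pairs with small MAF proteins, represses many of the same sites. NFE2L1 encodes NRF1, a relative of NRF2 that is anchored in the endoplasmic reticulum and drives proteasome genes. Much of this control acts on proteins, which were not measured.

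The control libraries held 8887854 to 11397407 counts, and mitochondrially encoded genes took 3.83 to 6.25% of them, the highest share in replicate 3. The differences of replicate 3 from the others followed GC content (below). Of 12 markers of noradrenergic neuroblastoma cells, 11 had at least 10 counts in every library, with summed levels of 4216 to 4606 CPM (counts per 1000000 of the scaled library total). TH, the first enzyme of catecholamine synthesis, had 0 counts in all 3 libraries, which allows up to 0.339 CPM in replicate 3. Summed levels of the other marker lists were 1.58 to 2.43 CPM for 4 immune genes, 2.03 to 2.63 CPM for 4 epithelial genes, 0.0875 to 0.187 CPM for 3 endothelial genes and 33.9 to 34.8 CPM for 4 fibroblast genes, of which COL1A1, LUM and DCN passed 10 counts in every library.

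All 10 genes of the machinery were present, with 88 to 5311 counts per library, and their levels spread widely. NFE2L1 was the most abundant, followed by MAFG and KEAP1; NFE2L2 came next; and the ligase parts, BACH1 and the other small MAF genes lay lower. Within families the imbalance was wide for the small MAF genes, where MAFG exceeded MAFK 15.0-fold, and narrow for the F-box pair BTRC and FBXW11. The transcript of NFE2L2 itself differed between control libraries, by 1.37-fold between replicates 1 and 3.

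**Figure D1:**
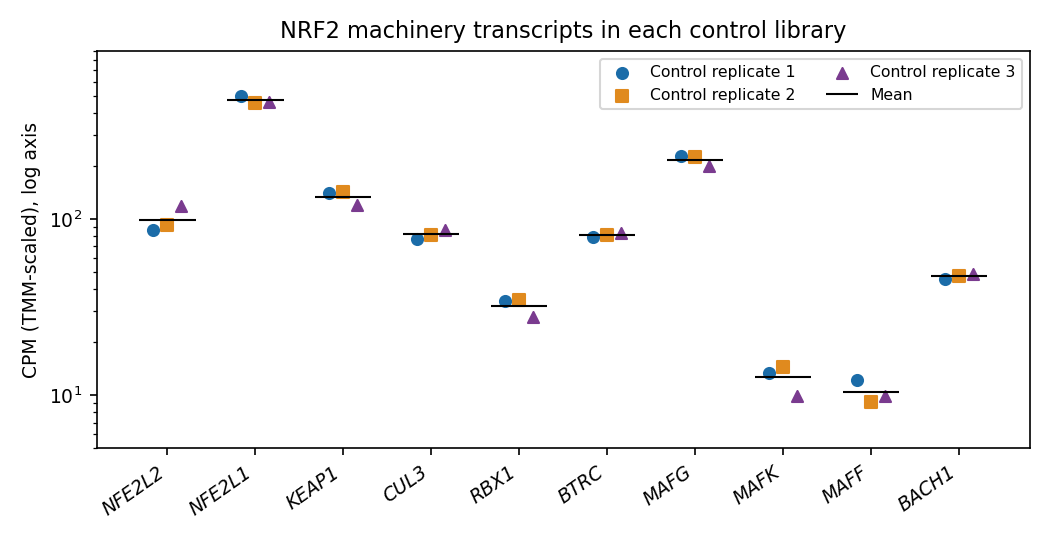
Level of each gene (CPM scaled with TMM factors, log axis) in control replicates 1, 2 and 3, with the mean as a line. NFE2L2 is highest in replicate 3 (118 CPM), while RBX1 and MAFG are lowest there (27.9 and 199 CPM), and the points of BTRC and BACH1 nearly coincide. CPM is not corrected for gene length, so heights are compared within a gene.

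NFE2L2 (ENSG00000116044.16, chr2:177227595-177392697, minus strand) had 86.4, 92.5 and 118 CPM in replicates 1, 2 and 3, from 924, 1057 and 1049 counts. Replicate 3 lay above both others, which were close to each other. An exact binomial test of the counts of each pair of libraries was run on the 13920 genes that reached 10 counts in each of the 3 libraries, with Benjamini-Hochberg adjustment over all genes and pairs. It compares libraries, not conditions, and sets each difference against counting error alone, with no term for the spread between samples. For NFE2L2 the exact test gave an adjusted p of 2.81e-10 for replicates 1 and 3 (a log2 difference of 0.46) and of 8.04e-07 for replicates 2 and 3 (0.36). Between replicates 1 and 2 the log2 difference was 0.10, with an adjusted p of 0.352 in the exact test.

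NFE2L1 (ENSG00000082641.16, chr17:48048329-48061487, plus strand) had 497, 456 and 460 CPM, from 5311, 5206 and 4075 counts. Here it was replicate 1 that lay above the others, by a log2 difference of 0.12 over replicate 2 and 0.11 over replicate 3. Small as they are, both differences passed the exact test, with adjusted p of 0.000222 and 0.00331, since a counting error of 1.37 to 1.57% leaves little room. Replicates 2 and 3 differed by 0.01 on the log2 scale, with an adjusted p of 0.837 in the exact test. As scaled, the order of the libraries for NFE2L1 was thus not that for NFE2L2. With the trend with GC content removed (below), replicate 3 was the highest for NFE2L1 as for NFE2L2. It then lay above replicate 2 by 0.13 and above replicate 1 by 0.04 on the log2 scale, the latter not called.

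KEAP1 (ENSG00000079999.14, chr19:10486120-10503741, minus strand), the adaptor that binds NRF2, had 140, 142 and 119 CPM, from 1497, 1622 and 1057 counts. Unlike for NFE2L2, replicate 3 was the lowest, with log2 differences of -0.23 from replicate 1 and -0.25 from replicate 2. The exact test gave adjusted p of 0.00115 and 0.000255 for these pairs. Neither call was kept once the trend with GC content was removed (below), where the log2 differences were -0.02 and -0.09.

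CUL3 (ENSG00000036257.13, chr2:224470150-224585397, minus strand), the scaffold of the KEAP1 ligase, had 77.2, 81.5 and 86.5 CPM, from 826, 931 and 766 counts. No pair of libraries was called for CUL3. The widest, replicates 1 and 3, had a log2 difference of 0.16 and an adjusted p of 0.116 in the exact test. With the trend with GC content removed (below), that difference was -0.14 (adjusted p = 0.347, exact test), and replicate 3 was the lowest for CUL3. RBX1 (ENSG00000100387.9, chr22:40951347-40973309, plus strand), the RING subunit that brings in the ubiquitin-charged enzyme, had 34.1, 34.8 and 27.9 CPM, from 365, 398 and 247 counts. Replicate 3 was the lowest for RBX1, by a log2 difference of -0.32 from replicate 2, with an adjusted p of 0.0411 in the exact test. That call was lost with RLE factors (adjusted p = 0.0542) and with no filter on low counts (adjusted p = 0.082).

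The short promoter windows of the machinery were searched for the core of the antioxidant response element, because KEAP1 and MAFG have been described as genes that NRF2 itself can induce. RefSeq promoters (GRCh38.p14, 250 bases before to 50 after a start) were found for 8 of the 10 genes, with 15 starts; BTRC and MAFK had none. The motif TGACNNNGC, on either strand, lay in 3 of the 15 windows, and in 13.3% of all 35116 windows of that length. The matches are printed with 10 bases on each side, on the strand that reads the motif, which is in capitals. They are matches of letters, not measured binding sites.
KEAP1, 54 bases upstream of the start, minus strand, chr19:10502807-10502835: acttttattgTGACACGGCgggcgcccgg
KEAP1, 31 bases upstream, plus strand, chr19:10502784-10502812: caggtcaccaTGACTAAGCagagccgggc
MAFF, 122 bases upstream, minus strand, chr22:38201862-38201890: cgcccccgtaTGACCCCGCcccctggaag
RBX1, 124 bases upstream, minus strand, chr22:40951244-40951272: gcggagcacgTGACCACGCctcttaaagg
The KEAP1 matches lie in the same window and face opposite ways. None of the 2 windows of NFE2L2, the 1 of MAFG or the 3 of BACH1 holds these letters.

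BTRC (ENSG00000166167.18, chr10:101354033-101557321, plus strand), the F-box protein of the route that does not need KEAP1, was the steadiest gene, with 79.2, 81.5 and 83.5 CPM. Its 847, 931 and 739 counts give a coefficient of variation of 2.61% between libraries, below its counting error of 3.28 to 3.68%. No pair of libraries was called for BTRC, and the smallest adjusted p of the exact test was 0.57.

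MAFG (ENSG00000197063.11, chr17:81918270-81927714, minus strand) had 228, 225 and 199 CPM, from 2442, 2568 and 1763 counts. Replicate 3 was the lowest, by log2 differences of -0.20 from replicate 1 and -0.17 from replicate 2, with adjusted p of 0.000241 and 0.00139 in the exact test. MAFK (ENSG00000198517.10, chr7:1530714-1543043, plus strand) had 13.4, 14.5 and 9.94 CPM, from 143, 166 and 88 counts. Its log2 difference of -0.55 between replicates 2 and 3 was the widest among the 10 genes, yet with so few counts it gave an adjusted p of 0.0274 in the exact test, and of 0.0549 with no filter on low counts.

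MAFF (ENSG00000185022.12, chr22:38200767-38216511, plus strand) had 12.2, 9.10 and 9.94 CPM, from 130, 104 and 88 counts. Replicate 1 was the highest, and no pair was called; replicates 1 and 2 had a log2 difference of -0.42, with an adjusted p of 0.135 in the exact test. MAFF and MAFK, whose proteins are the usual alternatives to MAFG as partners of NRF2, thus rested on counting errors of 7.76 to 10.7%.

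BACH1 (ENSG00000156273.16, chr21:29194071-29630751, plus strand), the repressor that contests the same elements, had 45.9, 47.7 and 48.4 CPM, from 491, 545 and 429 counts. As scaled, it varied like BTRC by less than its counting error, with a coefficient of variation of 2.75% against 4.28 to 4.83%. The smallest adjusted p of the exact test for BACH1 was 0.689. With the trend with GC content removed (below), the log2 difference between replicates 1 and 3 went from 0.08 to -0.15. No pair was called then either (adjusted p = 0.505 for replicates 1 and 3, exact test).

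In all, 6 of the 10 genes (NFE2L2, KEAP1, RBX1, MAFG, MAFK and NFE2L1) were called in at least 1 pair of libraries, beside 29.6% of the 13920 genes tested. By pair, NFE2L1 alone was called between replicates 1 and 2 (6.15% of all genes). NFE2L2, KEAP1, MAFG and NFE2L1 were called between replicates 1 and 3 (25.3%). NFE2L2, KEAP1, RBX1, MAFG and MAFK were called between replicates 2 and 3 (16.3%). A call depends on depth as well as on size, and deeper genes pass with smaller differences. The median coefficient of variation of the 10 genes was 8.34%, against 8.69% over all genes tested. Without replicate 3 only NFE2L1 was called, beside 2.93% of the 14371 genes then tested.

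The departures of replicate 3 moved with GC content, and removing the trend split the genes. In replicate 3, genes with GC-poor transcripts were higher and genes with GC-rich transcripts lower. Among 10290 nuclear genes in 20 bins, the median log2 difference from the other replicates went from 0.27 at 35.6% GC to -0.25 at 65.7% GC. The longest transcripts of KEAP1, MAFG and MAFK have 60.3%, 57.2% and 63.4% GC. With the trend taken out of every library, their calls were lost. KEAP1 then had a log2 difference between replicates 2 and 3 of -0.09 with an adjusted p of 0.462 in the exact test. MAFG had -0.06 with 0.578, and MAFK had -0.37 with 0.343.

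NFE2L2 and RBX1 kept theirs. NFE2L2, at 45.6% GC, still had a log2 difference of 0.43 between replicates 1 and 3, with an adjusted p of 9.87e-09 in the exact test. RBX1, at 42.9% GC, lay on the side opposite to the trend, and its log2 difference between replicates 1 and 3 went from -0.29 (adjusted p = 0.0797, exact test) to -0.39 (adjusted p = 0.0294). NFE2L1 stayed called between replicates 1 and 2 (0.0362, exact test), lost the call between 1 and 3 (0.609) and gained one between 2 and 3 (adjusted p = 0.00158), where replicate 3 was now higher by 0.13. In all, 3 of the 10 genes were called after removal, beside 9.24% of all genes; the background was 6.37% for the pair of replicates 1 and 3. It was 5.33% for replicates 2 and 3. For replicates 1 and 2 it was 1.49%, against 6.15% before removal, so calls fell in that pair too. The difference of replicate 3 from the mean of the others was smaller in size after removal for 6 of the 10 genes. It changed sign for CUL3 (0.12 to -0.11, log2), BACH1 (0.05 to -0.12), MAFF (-0.08 to 0.12) and NFE2L1 (-0.05 to 0.08). The trend itself was estimated from these libraries, and what produced it was not tested.

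**Figure D2:**
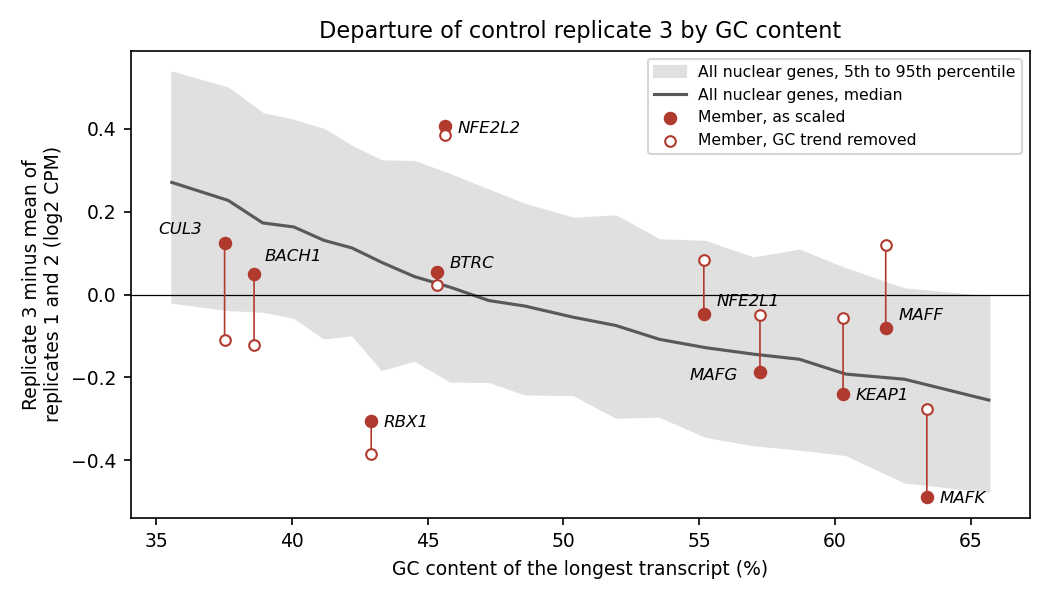
Difference of control replicate 3 from the mean of replicates 1 and 2 (log2 CPM) against the GC content of the longest transcript (percent). The line and band are the median and the 5th to 95th percentile of 10290 nuclear genes in 20 bins; filled points are the genes as scaled and open points the same genes with the GC trend removed. KEAP1 goes from -0.24 to -0.06 and MAFG from -0.19 to -0.05, while NFE2L2 goes from 0.41 to 0.39 and RBX1 goes from -0.31 to -0.39.

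Levels of different genes were compared per length, as TPM (counts per base of annotated exons, scaled to the same total in each library). NFE2L1 led with 312 ± 23.1 TPM (SD, n = 3), followed by MAFG with 161 ± 18.5 and KEAP1 with 138 ± 18.6 TPM. NFE2L2 had 63.6 ± 8.04 TPM. Below it came BTRC with 47.4 ± 1.44, RBX1 with 40.4 ± 6.44, CUL3 with 27.4 ± 0.897 and BACH1 with 23.6 ± 0.837 TPM. MAFK with 11.0 ± 2.51 and MAFF with 7.14 ± 1.18 TPM were the lowest. Of the 9 neighbouring pairs in this order, MAFG with KEAP1 and MAFK with MAFF overlapped in their ranges over the 3 libraries. Within each library, however, MAFG was above KEAP1 (172 against 146, 171 against 150 and 140 against 116 TPM in replicates 1, 2 and 3). MAFK was likewise above MAFF within each library. Of the 10 genes, 7 lay above the median level of the 13868 genes that had a length and passed the minimum of 10 counts (23.9 TPM). BACH1 lay at that median: it was below the library's own median in replicate 1 (23.4 against 23.9 TPM) and above it in replicate 2 (24.6 against 24.5) and replicate 3 (23.0 against 22.7).

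The order depended on the length used. With the longest transcript of each gene as the length, KEAP1 (130 ± 15.8 TPM) came before MAFG (124 ± 12.5 TPM), also within each library. RBX1 (49.6 ± 7.22 TPM) came before BTRC (38.0 ± 0.745 TPM). NFE2L2 went from 63.6 to 99.3 ± 14.0 TPM at the same rank, 4 of 10: its exons cover 5979 bases in all and its longest transcript has 2853. The range of NFE2L2 (88.0 to 115 TPM) then overlapped those of MAFG (from 109 TPM) and KEAP1 (from 112 TPM), but not that of NFE2L1. NFE2L1 was first and MAFK and MAFF were last under both lengths.

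**Figure D3:**
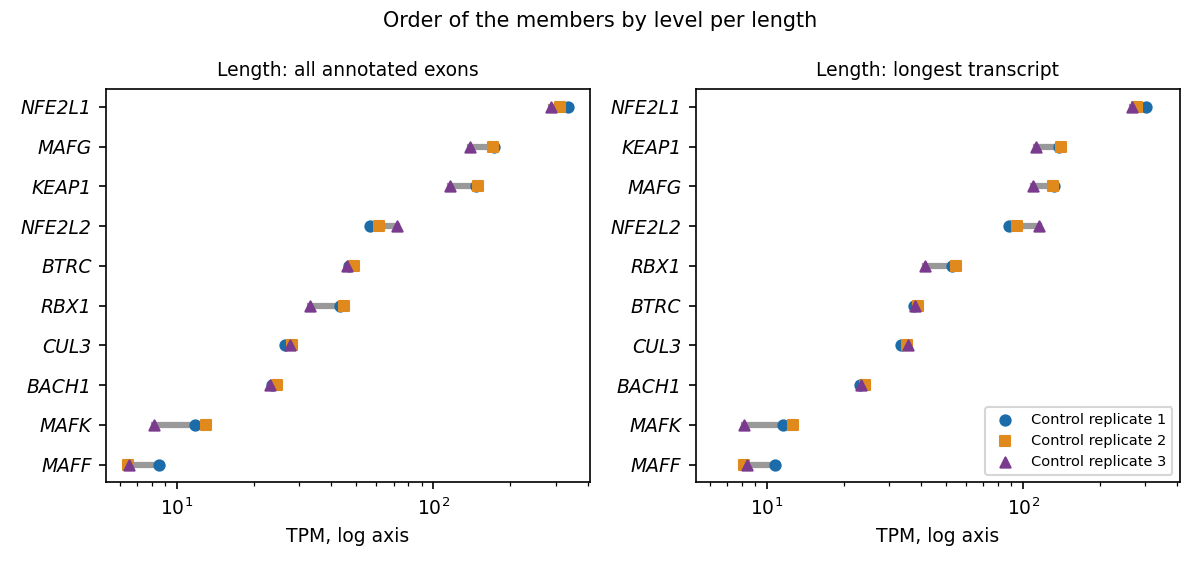
Level per length (TPM, log axis) of the 10 genes, ordered by their mean over 3 control libraries; grey bars span the libraries. The left panel uses the length of all annotated exons and the right panel the longest transcript; KEAP1 and MAFG change places, as do RBX1 and BTRC, and NFE2L2 goes from 63.6 to 99.3 TPM.

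Ratios within each library, of paralogs and of ligase parts, describe the balance of the machinery. NFE2L1 exceeded NFE2L2 by 5.90, 5.06 and 3.99-fold in TPM in replicates 1, 2 and 3. The mean ratio was 4.98 ± 0.958 (SD, n = 3), or 2.90 ± 0.558 with the longest transcripts. KEAP1 exceeded CUL3 by 5.54, 5.33 and 4.22-fold, on average by 5.03 ± 0.71, or by 3.75 ± 0.529 with the longest transcripts. The longest transcript of KEAP1 has 60.3% GC and that of CUL3 37.5%. With the GC trend removed, the departure of replicate 3 went from -0.24 to -0.06 for KEAP1 on the log2 scale. For CUL3 it went from 0.12 to -0.11. Ratios were not computed with the trend removed, so their differences between libraries include it. CUL3 was below RBX1 in every library, at a ratio of 0.69 ± 0.125. It was 0.833 in replicate 3, where RBX1 was lowest, against 0.608 and 0.629 in the others.

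Among transcription factors of the cap'n'collar and BACH families, 5 of 6 were present. NFE2, the blood-cell relative of NRF2, had 0 counts in all 3 libraries, which allows up to 0.339 CPM. NFE2L3, another membrane-bound relative, had 21.5, 25.4 and 25.1 TPM. BACH2, the repressor best known from B cells, was above BACH1, with 34.3 ± 2.96 TPM. The ratio of BACH1 to BACH2 was 0.635, 0.701 and 0.739, below 1 in each library, and also below 1 in each with the longest transcripts (mean 0.862 ± 0.0658). The median of the family was 29.5 ± 1.21 TPM, against 23.7 ± 0.891 for all genes that passed the minimum of counts.

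Among the small MAF genes, MAFG dominated. MAFG exceeded MAFK by 14.6, 13.2 and 17.1-fold in TPM and exceeded MAFF by 20.2, 26.6 and 21.6-fold. With the longest transcripts the mean ratios were 11.7 ± 1.55 to MAFK and 13.8 ± 2.03 to MAFF, the latter down from 22.8 ± 3.35. MAFK exceeded MAFF in 3 of 3 libraries by exon length and in 2 of 3 by the longest transcript. NRL, a retinal relative with an activation domain that small MAF proteins lack, had 1.77 ± 0.0905 TPM, from 14 to 15 counts. MAFA, known from pancreatic beta cells, had 2, 4 and 3 counts and MAF had 1, 0 and 0, so neither passed 10 counts.

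**Figure D4:**
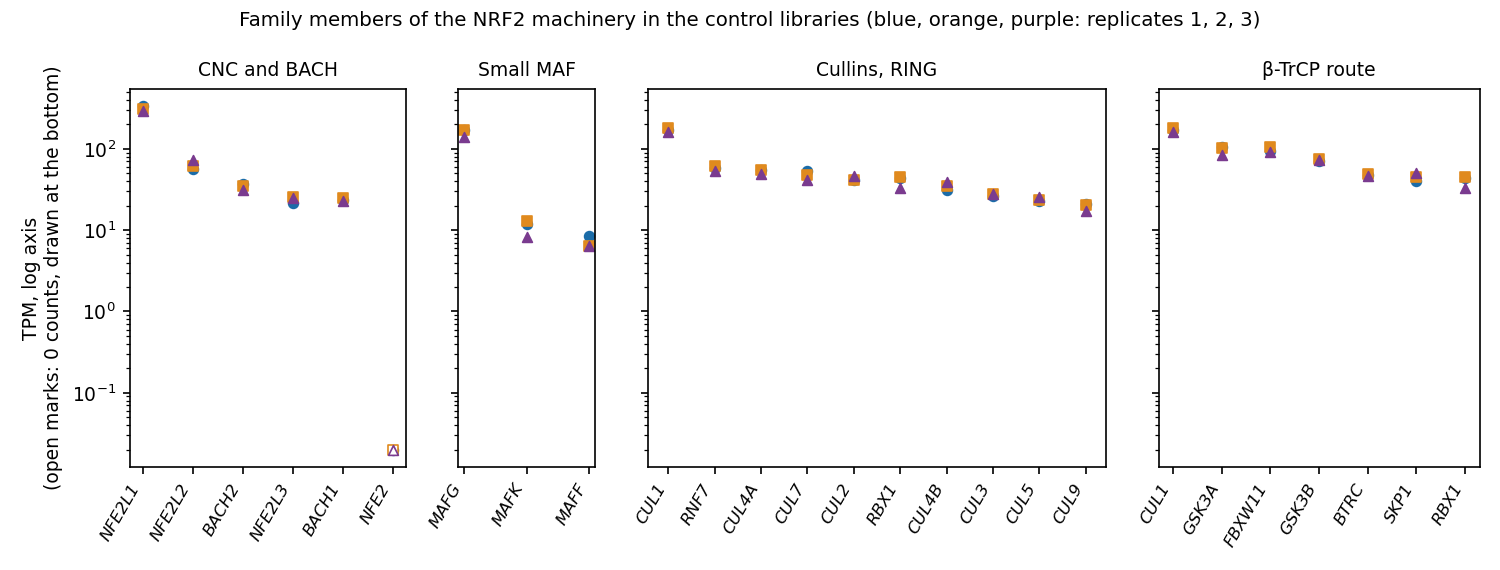
Level per length (TPM, log axis) of genes in 4 families, by control library, with genes ordered by their mean. MAFG stands at 161 TPM, with the other small MAF genes, MAFK and MAFF, at 11.0 and 7.14 TPM, whereas the cullins and RING subunits lie between 19.4 (CUL9) and 171 TPM (CUL1), and NFE2 is drawn at the bottom because it had 0 counts.

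CUL3, at 27.4 TPM, was below CUL4B, CUL2, CUL7 and CUL4A in mean level; with the longest transcripts it had 34.7 ± 1.26 TPM, within 1 SD of CUL7 (36.1 ± 4.43), CUL2 (37.5 ± 3.25) and CUL4B (37.6 ± 4.62). All 10 cullin and RING genes were present, with a median of 41.9 ± 1.72 TPM. CUL1, the scaffold of F-box ligases, was the highest with 171 ± 11.3 TPM, and CUL9 the lowest with 19.4 ± 1.98 TPM, although with the longest transcripts CUL5 (19.0 ± 1.61 TPM) was below CUL9 (21.7 ± 1.92 TPM). RNF7, the alternative RING subunit, which pairs mainly with CUL5, had 57.8 ± 3.70 TPM. RBX1 was below RNF7 in all 3 libraries, at 0.697 ± 0.071, but with the longest transcripts the ratio was 1.01 ± 0.103, so the direction of this pair is not fixed. By the exact test, 5 of the 10 genes were called in at least 1 pair of libraries (CUL2, CUL4B, CUL5, CUL7 and RBX1), beside the 29.6% given above.

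The route through beta-TrCP had a median of 72.7 ± 1.97 TPM over 7 genes, all present. FBXW11, which encodes the second beta-TrCP protein, was 97.0 ± 6.78 TPM, and BTRC was below it in each library, at ratios of 0.499, 0.468 and 0.503. SKP1, the adaptor between F-box proteins and CUL1, had 45.3 ± 4.64 TPM. GSK3B, a kinase that phosphorylates NRF2 for this route, was below its paralog GSK3A, at ratios of 0.67, 0.739 and 0.855. With the GC trend removed, the departure of replicate 3 went from 0.09 to -0.01 for GSK3B and from -0.19 to -0.11 for GSK3A (log2). CUL1 was the highest of the route. RBX1 had the lowest mean, though SKP1 was below it in replicate 1 (40.7 against 43.4 TPM), and with the longest transcripts BTRC (38.0 TPM) and SKP1 (45.5 TPM) were below RBX1 (49.6 TPM).

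NEDD8 conjugation switches cullin ligases on, the COP9 signalosome removes NEDD8, and CAND1 exchanges the substrate adaptors. All 17 genes of this list were present, with a median of 54.3 ± 4.56 TPM, or 70.5 TPM with the longest transcripts. UBE2M, the NEDD8-conjugating enzyme that serves CUL3, was the highest with 229 ± 30.4 TPM, and CAND2 the lowest with 10.7 ± 1.22 TPM. With the longest transcripts COPS6, a subunit of the signalosome, was above UBE2M, at 269 ± 15.7 against 207 ± 24.5 TPM. By the exact test, 9 of the 17 were called in at least 1 pair of libraries, among them UBE2M and CAND1, beside 29.6% of all genes. NAE1, a subunit of the NEDD8-activating enzyme, had 52.3, 68.9 and 83.9 CPM in replicates 1, 2 and 3. It was chosen after its values were seen. With the GC trend removed, the departure of replicate 3 for NAE1 (40.4% GC) went from 0.48 to 0.34 on the log2 scale.

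KEAP1 is one of many BTB-Kelch proteins that present substrates to CUL3. Of 51 such genes found by symbol, 36 had at least 10 counts in every library, and the median was 16.1 ± 2.52 TPM. KEAP1 had the highest mean, with 146, 150 and 116 TPM, followed by KLHL12, which acts on COPII coats, with 125 ± 1.68 TPM, and KLHL13, a mitotic adaptor, with 115 ± 2.54 TPM. In replicate 3 KEAP1 ranked 3 of 51, below KLHL12 (124 TPM), so the top rank is not separated beyond the spread. With the GC trend removed, the departure of replicate 3 went from -0.24 to -0.06 for KEAP1 (log2). It went from 0.09 to 0.08 for KLHL12 and from 0.14 to -0.10 for KLHL13. Ranks were not computed with the trend removed. With the longest transcripts IVNS1ABP (150 ± 5.85 TPM) came before KEAP1 (130 ± 15.8 TPM). At the other end, 7 of the 51 had 0 counts throughout, KBTBD13, a muscle adaptor, among them.

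**Figure D5:**
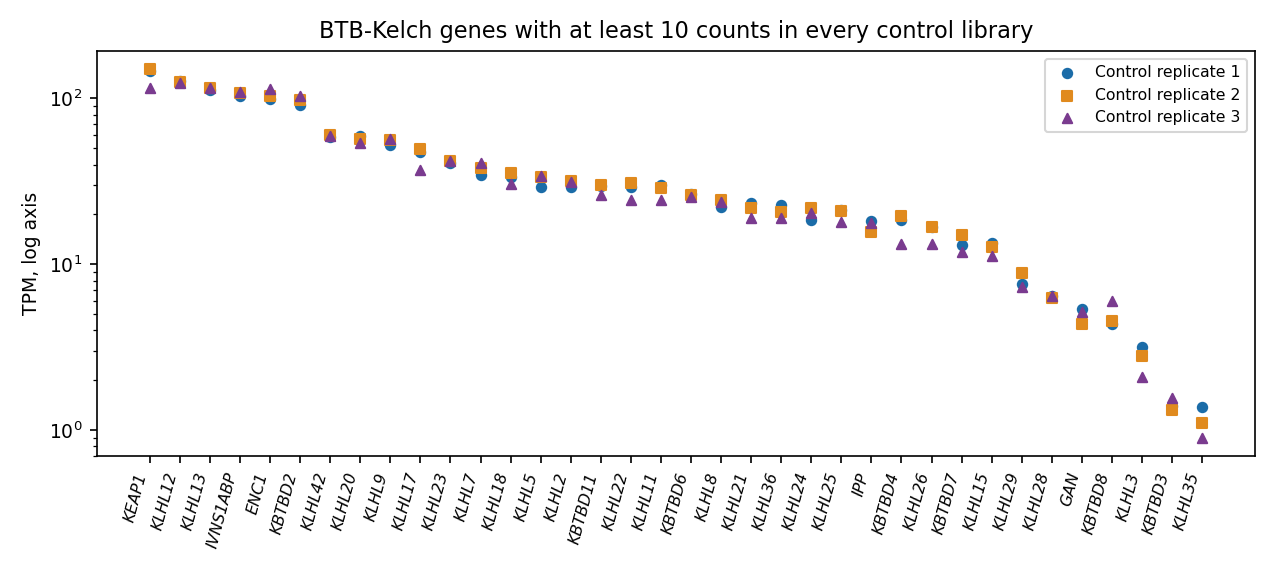
Level per length (TPM, log axis) of the 36 BTB-Kelch genes that passed 10 counts in each control library, ordered by mean, one mark per library. KEAP1 is leftmost, with 146 and 150 TPM in replicates 1 and 2 but 116 TPM in replicate 3, where KLHL12 has 124 TPM.

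Other proteins that bind KEAP1 or NRF2, or remove their ubiquitin, were all present (11 of 11), with a median of 72.2 ± 6.55 TPM. PTMA, which encodes prothymosin alpha, a KEAP1 binder, was the highest with 844 ± 64.2 TPM, and USP15, which removes ubiquitin from KEAP1, the lowest with 7.45 ± 0.916 TPM. SQSTM1, the autophagy receptor p62 that carries KEAP1 away, had 294, 290 and 222 TPM, lowest in replicate 3 as KEAP1 was; it was chosen after its values were seen. Its longest transcript has 58.0% GC, and with the GC trend removed its departure of replicate 3 in CPM went from -0.28 to -0.13 (log2).

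The pattern of NFE2L2 over the 3 libraries was set beside 63 other genes of these lists that had 100 counts or more in each library, by the distance between their log2 deviations from their own means. The nearest were SKP1 (distance 0.066), CUL4B (0.069) and COPS8 (0.071). SKP1 had 132, 145 and 174 CPM, CUL4B 55.8, 62.5 and 74.9 CPM, and COPS8 73.0, 73.8 and 101 CPM in replicates 1, 2 and 3. With 3 libraries of 1 group, this describes which genes were also highest in replicate 3. Their longest transcripts have 41.5%, 37.7% and 41.1% GC, on the side that was raised there. With the GC trend removed the excess of replicate 3 over the others went from 0.33 to 0.21 for SKP1, from 0.34 to 0.12 for CUL4B and from 0.46 to 0.33 for COPS8 on the log2 scale. For NFE2L2 it went from 0.41 to 0.39.

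Some reads of these genes could belong to neighbours, because neither the strand setting of the counting nor its treatment of shared reads is stated. In GENCODE 29, MAFK shares 809 exon bases with TMEM184A on the opposite strand, and 22.9% of the 50-base windows of its longest transcript also occur there. TMEM184A had 2 counts in each library. MAFG shares 105 exon bases with SIRT7 on the same strand, which had 742, 742 and 478 counts. NFE2L2 shares 1054 exon bases with AC019080.1 on the same strand (23, 31 and 23 counts). On the opposite strand it shares 190 with AC079305.1 (1, 2 and 0 counts) and 54 with AGPS (797, 918 and 720 counts). Over all annotated exons, BACH1 shares 302 bases with LINC00189 on the same strand (4, 7 and 4 counts). On the opposite strand BACH1 shares 45 with GRIK1 (7, 6 and 7 counts) and MAFG 224 with AC145207.8 (12, 8 and 10 counts). CUL3 shares 598 with AC073052.2 and NFE2L1 192 with AC004477.2, both opposite and with 0 counts throughout. The longest transcripts of KEAP1, RBX1, BTRC and BACH1 shared no 50-base window with a transcript of another gene. Those of MAFG, MAFF and MAFK shared none with each other.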

How the data were processed

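The authors deposited raw counts per Ensembl gene, unnormalized, with 1 column per library, per the file headers and the values. Tools named in the submitters' processing notes are fastp 0.21.1, STAR 2.7.7a and featureCounts, with build GRCh38; the annotation release, the strand setting and the treatment of shared reads are not given in the sources used here. The 3 columns that match no sample were not used.

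The table lists 60710 genes, of which 1 (a broken entry) has no values; 2 further lines name no gene and hold no counts in the columns used. Symbols matched 60436 genes. Exon and transcript lengths and GC content came from GENCODE 29 (GRCh38), which covered 58463 genes and may differ from the authors' annotation, as 38241 identifiers had the same version. CPM used TMM factors (edgeR 4.0.16, R 4.3.3). Pairs of libraries were compared with edgeR's binomTest and, above 10000 counts in a pair, R's exact binomial test, two-sided, over the genes that reached 10 counts in each library, with a threshold of 0.05 on the adjusted p. The GC trend was the median deviation in 50 bins of nuclear genes averaging 100 counts or more. The pair test was tested on simulated data. Other tables used Python 3.11.15.

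The members and lists were chosen with earlier results of these data known. The text names all members, the paralogs in ratios, the highest and lowest gene of each list and the 3 nearest patterns; 1 result on the MAF family is not reported here. The labels do not say whether the libraries came from separate cultures, and the exact test has no term for the spread between samples, so its p-values measure counting error in these samples only.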

Additional observations from a re-analysis of the deposited data

How the results depend on the processing

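The planned peptide comparison, with its alternatives (DESeq2, other factors, no filter, left-out replicates), was not run, since columns matched 1 group. No paired analysis was possible because the control replicates had no partners in the table. The number of the 10 genes called in at least 1 pair of libraries, 6, was 3 with the GC trend removed, 4 with no filter on low counts and 5 with RLE factors; it ranged from 1 (without replicate 3) to 5 over the fits that each left out one library. Calls over all genes and pairs, 6648, became 1837 with the GC trend removed and ranged from 421 to 3932 when a library was left out, where 1 pair is left in place of 3. Overlapping neighbours in the order of levels, 2 of 9, were 3 with the longest transcripts and 0 to 2 when a library was left out. Leaving out mitochondrially encoded genes moved 3 mean levels by more than 1 SD (BTRC to 85.4, BACH1 to 49.7 and NFE2L1 to 494 CPM), since the library total shrinks. The longest transcript as length moved 7 of 10 ratios and 7 of 10 list medians by more than 1 SD. Depth limits MAFF and MAFK most.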

Other observations

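The genes that process NRF1, the product of NFE2L1, were all present (7 of 7), with a median of 52.5 ± 2.60 TPM (SD, n = 3). VCP, the ATPase that pulls NRF1 out of the endoplasmic reticulum, was the highest with 520 ± 53.9 TPM. NGLY1, which removes its glycans, was the lowest with 9.60 ± 0.773 TPM, from 195 to 247 counts, but with the longest transcripts (18.6 TPM) it was above DDI2 (17.8 TPM) and FBXW7 (17.4 TPM). DDI2, the protease that cuts NRF1, had 20.9 ± 0.908 TPM, and SYVN1, the ligase HRD1 that marks both NRF1 and NRF2, had 73.2, 68.2 and 54.7 TPM. DDI2 and SYVN1 were picked with their values in view. The longest transcript of SYVN1 has 56.3% GC. With the GC trend removed, its departure of replicate 3 in CPM went from -0.26 to -0.11 on the log2 scale.

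The F-box genes FBXO22 and FBXL17, whose proteins mark BACH1 for degradation, had 16.5 ± 1.38 and 15.9 ± 1.63 TPM, below BACH1 itself at 23.6 TPM. Neither was called in any pair of libraries by the exact test. Of 6 coactivators and partners of NRF2, all were present, with a median of 39.8 ± 5.70 TPM. SMARCA4, the chromatin-remodelling ATPase BRG1, was the highest with 92.8 ± 16.1 TPM, and RXRA, a nuclear receptor that binds and restrains NRF2, the lowest with 10.5 ± 1.15 TPM. By the exact test 5 of the 6 (all but RXRA) were called in at least 1 pair of libraries, beside 29.6% of all genes.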
